A study of Mus musculus with 23 samples.

Results

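Collagens are the main fibre- and sheet-forming proteins of the extracellular matrix, and 29 of their genes were followed in mouse brown adipose tissue (BAT) after a short cold exposure. They are all genes of the table whose symbol has the collagen form, such as Col4a1, and they make up 29 of the 14651 genes measured. RNA was sequenced from the BAT of 23 male C57BL/6 mice aged 8 to 12 weeks. Control mice (genotype Mcu[fl/fl]) were studied at room temperature (RT, n = 6) or after 6 h at 4°C (n = 5). BAT-Mcu-KO mice (Mcu[fl/fl];Ucp1-Cre) were studied at RT (n = 6) or after 6 h at 4°C (n = 6) and are called knockouts here. Every mouse, controls included, carried the floxed allele of Mcu, the pore subunit of the mitochondrial calcium uniporter. Cre was driven by the Ucp1 promoter, which is active in brown adipocytes, so the fibroblasts and vessel cells that also make collagen were not its target. The cold exposure also meant single housing, bare cages and, as a rule, fasting. Where RT mice were kept otherwise, these cannot be told apart from temperature.

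Each collagen molecule is a helix wound from several chains, and the genes are named by type and chain. Fibrillar collagens (types I, III, V, XI and XXVII) form the rope-like fibrils of connective tissue. Type IV forms the sheet of basement membranes, which in BAT surround each adipocyte and each capillary, and types XV and XVIII lie beside it. Type VI forms beaded filaments around cells, fibril-associated collagens such as types XII and XIV coat the fibrils, and types XIII and XXIII span the cell membrane. Chains are hydroxylated and folded in the endoplasmic reticulum, trimmed after secretion and cross-linked by lysyl oxidases. Of 44 collagen genes sorted into these classes, 29 had a row: 8 of 11 fibrillar, 7 of 8 basement membrane, 4 of 6 beaded filament, 4 of 9 fibril-associated, 2 of 4 transmembrane, and 4 of 6 other genes. The remaining 15 were not analysed here.

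The values are normalized counts, that is, the reads of a gene scaled by the size factor of its library. The libraries held 7129271 to 21006347 reads on all 14651 genes of the table. Mcu had a normalized count of 109.5 ± 22.5 (SD, n = 6) and 107 ± 26.8 (SD, n = 5) in controls at RT and 4°C, against 35.1 ± 10.03 (SD, n = 6) and 33.9 ± 6.604 (SD, n = 6) in knockouts, and the genotypes did not overlap. The log2 difference by genotype was -1.66 at RT (adjusted p = 0.001) and -1.61 at 4°C (adjusted p = 0.00367). All 8 brown adipocyte markers were measured. The 9 skeletal muscle markers had summed levels from 14.9 to 46902 between mice, with a wide spread in each group, and none of them was called by cold. Cold was tested with limma on log2(normalized count + 1), and a gene was called at a Benjamini-Hochberg adjusted p under 0.05 over all 14651 genes. All log2 fold changes below are on that scale, on which the pseudocount weighs most on genes with few reads, and all adjusted p-values are from this test. In bulk tissue, fewer cells of a type and less RNA per cell cannot be told apart.

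The promoters of 4 collagen genes are printed because the results turn on them: the head-to-head pair Col4a1 and Col4a2 and the anchoring-fibril gene Col7a1, which rose in the cold, and Col1a2, an abundant gene that did not pass the test. Each sequence runs from 250 bases before to 50 after the start of the gene (RefSeq, build GRCm38.p6), 5′ to 3′ on the strand of the gene. Capitals mark 4 motifs searched on both strands. The first is the CCAAT box. The second is the GC box, spelled GGGCGG. The third is the TATA box in the form TATAAA. The last is TGACG, a half-site bound by cAMP-responsive factors. The windows lie at chr8:11312777-11313076 (minus strand), chr8:11312555-11312854 (plus strand), chr9:108953336-108953635 (plus strand) and chr6:4505368-4505667 (plus strand).
Col4a1: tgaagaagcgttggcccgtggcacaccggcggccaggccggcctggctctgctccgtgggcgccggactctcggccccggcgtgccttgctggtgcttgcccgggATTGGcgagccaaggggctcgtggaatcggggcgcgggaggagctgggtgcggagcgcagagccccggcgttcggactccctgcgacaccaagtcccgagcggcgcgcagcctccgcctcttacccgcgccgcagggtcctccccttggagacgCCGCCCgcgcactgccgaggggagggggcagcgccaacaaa
Col4a2: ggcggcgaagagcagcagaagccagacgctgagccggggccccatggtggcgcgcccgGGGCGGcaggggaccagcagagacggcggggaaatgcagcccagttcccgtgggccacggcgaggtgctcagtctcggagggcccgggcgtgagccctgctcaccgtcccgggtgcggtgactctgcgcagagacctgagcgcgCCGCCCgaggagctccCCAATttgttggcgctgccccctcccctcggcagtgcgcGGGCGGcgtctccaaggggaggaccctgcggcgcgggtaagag
Col7a1: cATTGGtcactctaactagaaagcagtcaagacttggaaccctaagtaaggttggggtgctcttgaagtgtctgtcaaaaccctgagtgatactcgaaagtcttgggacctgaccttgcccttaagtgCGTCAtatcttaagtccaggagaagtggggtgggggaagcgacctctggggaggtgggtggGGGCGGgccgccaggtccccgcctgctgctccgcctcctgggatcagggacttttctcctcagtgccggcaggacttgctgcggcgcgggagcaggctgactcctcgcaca
Col1a2: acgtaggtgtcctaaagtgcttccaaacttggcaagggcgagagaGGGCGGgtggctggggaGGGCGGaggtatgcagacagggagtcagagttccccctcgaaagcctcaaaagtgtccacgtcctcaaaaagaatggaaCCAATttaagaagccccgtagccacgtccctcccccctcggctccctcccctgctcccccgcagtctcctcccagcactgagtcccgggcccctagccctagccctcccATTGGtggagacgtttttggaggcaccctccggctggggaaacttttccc

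Col4a1 and Col4a2 start 21 bp apart on opposite strands, and their windows share 78 bases. Promoters were found for 24 of the 29 genes, in 26 windows. GGGCGG was in 16 of the 26 windows (35.7% of 32851 promoters of the same length), CCAAT in 8 (37.4%), TATAAA in 4 (13.6%) and TGACG in 3 (20.8%). The 3 windows with TGACG were those of Col7a1, Col11a2 and Col4a5. Neither window of the type IV pair held TATAAA or TGACG. A match describes the letters in the window and nothing about a factor.

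Most collagen genes did not pass the test for cold, and the few that did were the same in both genotypes. After 6 h at 4°C, 6 of the 29 genes were called in control and 6 in knockouts, 20.7% in each, where 46% and 43.3% of all genes tested were called. The 6 genes and their directions were the same in both genotypes (background for a call in both in 1 direction 34.8%, higher in both 17.3%, lower in both 17.5%, and in either genotype 54.5%). Col4a1, Col4a2, Col7a1, Col11a2 and Col27a1 rose, and Col23a1 fell. By direction, 5 of 29 rose against 22.3% of all genes in control and 21.4% in knockouts, and 1 of 29 fell against 23.7% and 21.9%. All 5 that rose did so by at least 2-fold in both genotypes, which 11.1% of all genes did in either direction. The other 23 genes passed in neither genotype. Many collagen genes have few reads, so the count was also taken at a mean normalized count of 50 or more: 4 of 18 genes were called in each genotype (Col4a1, Col4a2, Col7a1 and Col27a1), against 55.4% and 51.7% of all such genes. That mean was taken over the mice of all groups. Col7a1 reached it only through its mice at 4°C. Its group means there were 92.5 in control and 76.3 in knockouts, against 24.7 and 29.0 at RT.

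Before adjustment 9 genes had p under 0.05 in control (52.4% of all genes) and 6 in knockouts (49.9%). The 3 more in control were Col4a3, Col4a5 and Col13a1. The median log2 fold change over the 29 genes was 0.23 in control and 0.06 in knockouts, and -0.02 over all genes in both. In control 20 of the 29 values were above 0, and in knockouts 15. Scaling the libraries to their 75th percentile moved the median of all genes in control to -0.13 and the split of calls from 3269 higher and 3466 lower to 2644 and 4281. The 6 genes were called in the same directions under that scaling too.

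**Figure D1:**
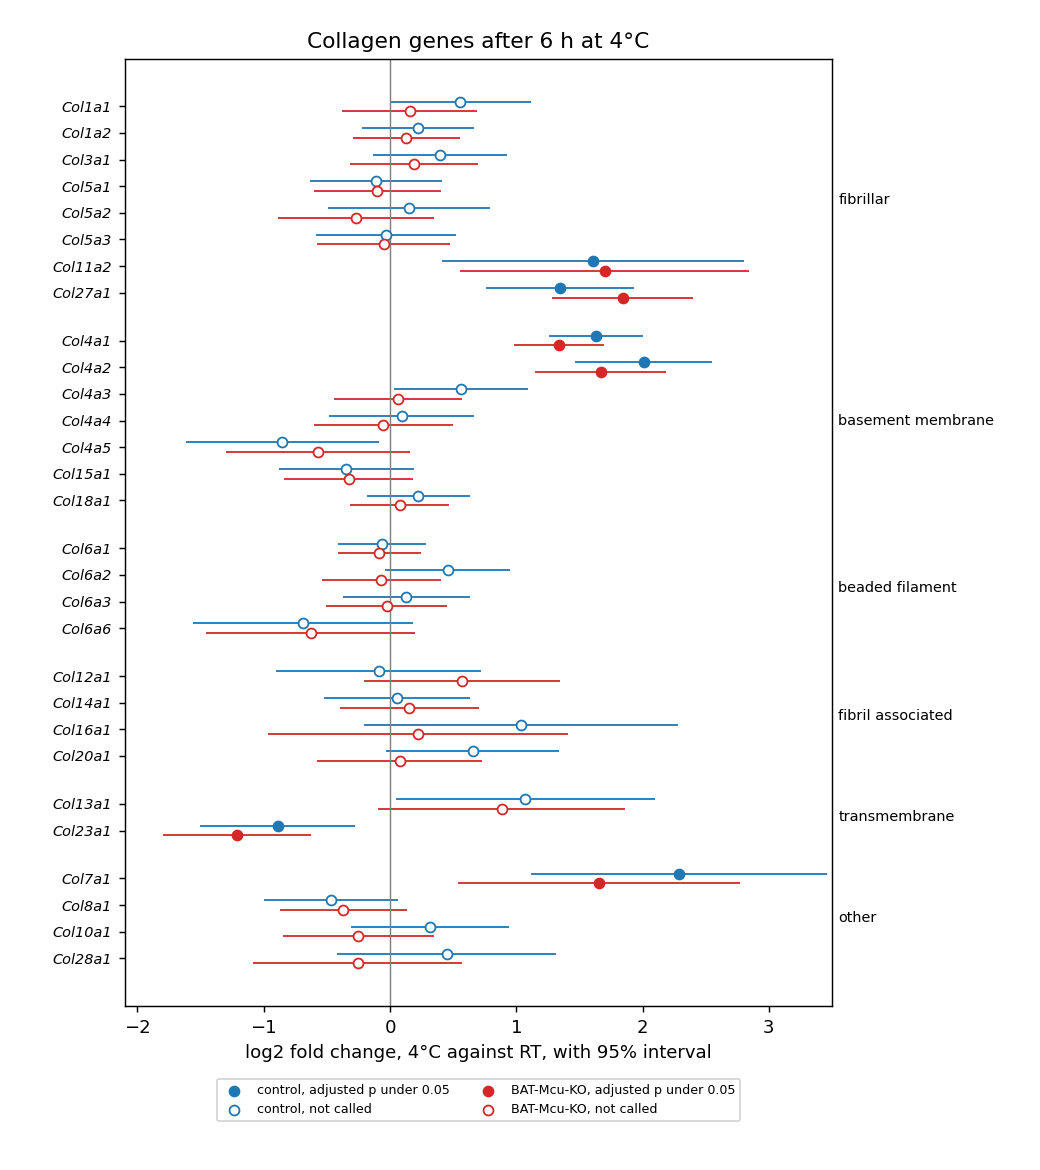
Log2 fold change between 4°C and RT (x axis) of each of the 29 collagen genes (y axis, grouped by class) in control (blue, 6 and 5 mice) and BAT-Mcu-KO mice (red, 6 and 6 mice), with 95% intervals from limma. Filled points are genes with an adjusted p under 0.05: the same 6 genes are filled in both colours, 5 of them to the right of 0. Genes of types I, III, V and VI are open, with intervals that span 0. Their points run from -0.69 (Col6a6) to 0.56 (Col1a1), both in control.

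The basement membrane chains Col4a1 and Col4a2 rose in both genotypes, and were the only collagen genes whose RT and 4°C mice did not overlap in either. They encode the type IV chains present in nearly all basement membranes, and they assemble with each other. Col4a1 (chr8:11198423-11312826, minus strand) had a normalized count of 1317 to 2483 (median 1976) in RT controls and of 5880.1, 3984, 5329, 7118 and 8451 at 4°C. In knockouts it was 1523 to 2302 (median 1997) at RT and 3459 to 7281 (median 4530.1) at 4°C. Each mouse at 4°C was above each mouse at RT in both genotypes. The log2 fold change was 1.63 in controls (SE 0.18, adjusted p = 6.29e-08) and 1.34 in knockouts (SE 0.17, adjusted p = 6.82e-07). Col4a2 (chr8:11312805-11449287, plus strand) was at 509 to 1734 (median 1040.1) in RT controls and at 2320.1, 3032, 3752, 4955 and 6025 at 4°C. In knockouts it was at 728 to 1762 (median 915) and 2431 to 3892 (median 3259). Again RT and 4°C did not overlap in either genotype. Its log2 fold change was 2.01 in controls (SE 0.26, adjusted p = 8.5e-07) and 1.67 in knockouts (SE 0.25, adjusted p = 6.53e-06). Groups that did not overlap were seen for 3 of 29 genes in control (25.2% of all genes) and 3 in knockouts (24.2%), and in both genotypes only for this pair (16.7%). Reads were counted without strand, by GENCODE M7. In GENCODE M21, exons of other genes cover 0.295% of the exon bases of Col4a1 and 0.982% of those of Col4a2. The share of reads that came from such genes was not tested.

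Markers of endothelial cells, which line capillaries, went in both directions. Of 10 such markers, all measured, 5 rose and 2 fell in control and 5 rose and 1 fell in knockouts, where 22.3% and 21.4% of all genes rose. Pecam1, Kdr, Flt1, Cldn5 and Esam rose in both genotypes, Tie1 fell in both and Emcn fell in control, and Cdh5, Tek and Erg passed in neither. Their summed normalized count was 5613 to 7477 in RT controls and 8618 to 14175 at 4°C, and 5825 to 7787 and 8074 to 12749 in knockouts, without overlap. The sum is weighted to the most abundant markers. The mean of log2 values over the list did overlap, at 8.80 to 9.23 in RT controls and 9.23 to 9.78 at 4°C, and at 8.87 to 9.28 and 9.15 to 9.55 in knockouts, and its medians differed by 0.39 and 0.40. The part of these cells in the rise of Col4a1 and Col4a2 was not tested.

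The ratio of the chains, chosen after values were seen, was followed as Col4a2 per 100 Col4a1. It ranged from 34.5 to 82.9 in RT controls and from 39.5 to 76.1 at 4°C, and from 44.1 to 76.5 and 33.4 to 77.4 in knockouts. On the log2 scale it was higher at 4°C by 0.38 in control (exact permutation test, two-sided, p = 0.173) and by 0.33 in knockouts (exact p = 0.158), with an adjusted p of 0.346 for both over 4 comparisons. By genotype the exact p was 0.727 at RT and 0.974 at 4°C. At 4°C, 9 of the 11 mice lay between 69.3 and 77.4. The other two, control replicate 1 and BAT-Mcu-KO replicate 6, were at 39.5 and 33.4. Without the first the control difference was 0.55 (unadjusted exact p = 0.0476), and without the second the BAT-Mcu-KO difference was 0.52 (unadjusted exact p = 0.0173). Without control replicate 5 at RT, the mouse at 82.9, the control difference was 0.53 (unadjusted exact p = 0.0397). Each of these mice lay against the difference and was picked by its value. The lower p-values follow from that choice and decide nothing. Leaving out other single mice gave differences as low as 0.276 in both genotypes.

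Among the fibrillar genes, only Col27a1 and Col11a2 passed the test. Both encode fibrillar chains best known from cartilage. Col27a1 (chr4:63214004-63334991, plus strand) was at 155 to 368 (median 242) in RT controls and at 843, 367, 615, 807 and 483 at 4°C. It was at 147 to 407 (median 179.7) in RT knockouts and at 458 to 1359 (median 664) at 4°C. All knockouts at 4°C were above those at RT, and in control the lowest mouse at 4°C and the highest at RT were nearly level. The log2 fold change was 1.35 in controls (SE 0.28, adjusted p = 0.000373) and 1.84 in knockouts (SE 0.27, adjusted p = 4.79e-06). Col11a2 (chr17:34039437-34066685, plus strand) had few reads, from 3 to 76 per mouse. It was at 2.98 to 15.2 (median 7.99) in RT controls and at 6.07, 56.2, 44.8, 42.6 and 16.04 at 4°C. It was at 3.58 to 65.6 (median 6.72) in RT knockouts and at 15.98 to 56.1 (median 39.2) at 4°C. The groups overlapped in both genotypes, through a low control mouse at 4°C and a high BAT-Mcu-KO mouse at RT, replicate 1. The log2 fold change was 1.61 in controls (SE 0.58, adjusted p = 0.0261) and 1.70 in knockouts (SE 0.56, adjusted p = 0.0153). In control the call was lost without replicate 6 at RT or replicate 2, 3 or 4 at 4°C (log2 fold change 1.33 to 1.43, adjusted p 0.0666 to 0.0808). In knockouts it was lost with DESeq2 on the recovered reads (1.15, adjusted p = 0.13) and with edgeR (1.13, adjusted p = 0.104). The 1 chondrocyte and bone marker with a row was not called by cold, and the others of that list of 8 were not analysed here.

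Col7a1 (chr9:108953586-108984875, plus strand) encodes the chain of the anchoring fibrils that fasten epithelial basement membranes to the stroma. It was at 2.98 to 53.8 (median 23.7) in RT controls and at 64.7, 88.02, 74.7, 121 and 114 at 4°C. Every control mouse at 4°C was above every control mouse at RT. In knockouts it was at 4.48 to 69.9 (median 27.1) at RT and at 40.05 to 147 (median 68.2) at 4°C, where the groups overlapped through 1 high mouse at RT, replicate 1. The log2 fold change was 2.29 in controls (SE 0.57, adjusted p = 0.0018) and 1.65 in knockouts (SE 0.54, adjusted p = 0.0156). In knockouts it was 1.25 (adjusted p = 0.0538) without replicate 4 at RT, the mouse with the lowest value. Col23a1 (chr11:51289920-51583918, plus strand), a membrane-spanning collagen, was the gene that fell. It had few reads, from 6 to 43 per mouse. It was at 18.6 to 45.7 (median 29.7) in RT controls and at 12.1, 19.7, 12.4, 17.6 and 18.4 at 4°C. In knockouts it was at 20.7 to 30.7 (median 29.1) at RT and at 5.26 to 24.7 (median 10.3) at 4°C. RT and 4°C overlapped in both genotypes. The log2 fold change was -0.89 in controls (SE 0.30, adjusted p = 0.0169) and -1.21 in knockouts (SE 0.28, adjusted p = 0.00116).

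**Figure D2:**
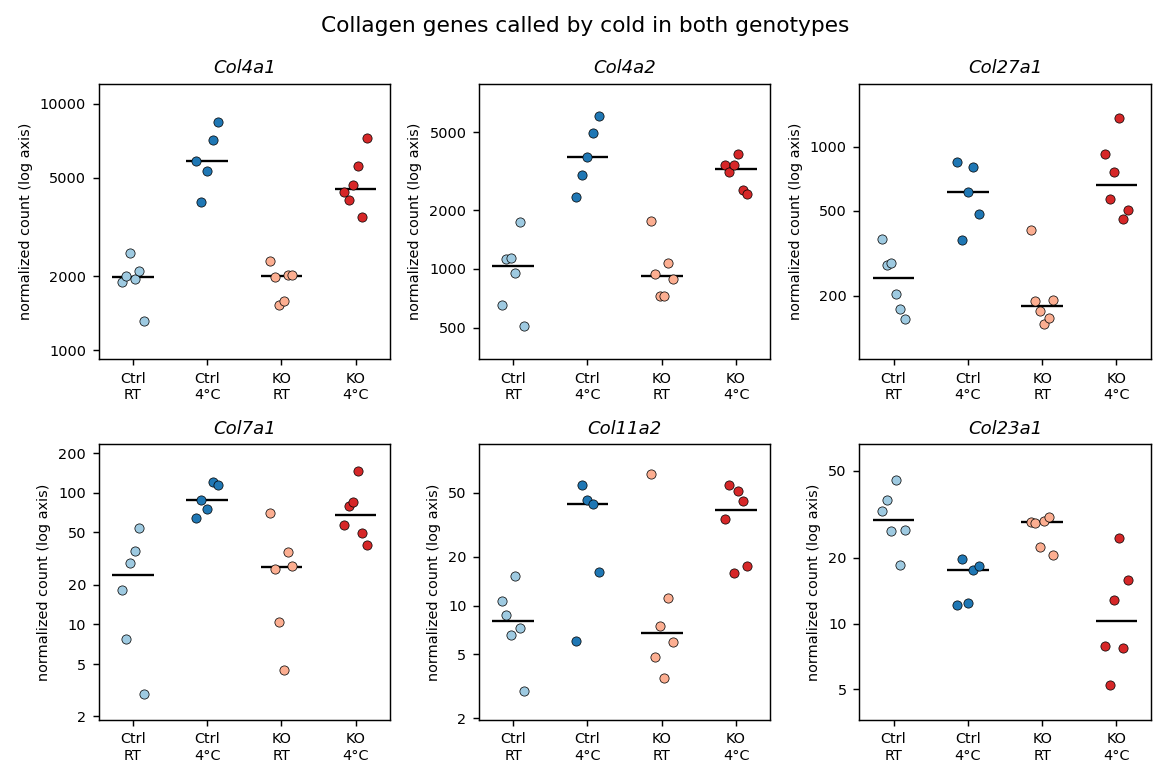
Normalized count (y axis, log scale) of the 6 collagen genes called by cold in both genotypes, by group (x axis). Each point is 1 mouse and each line the median of its group. Col4a1 and Col4a2 separate RT from 4°C in both genotypes, and BAT-Mcu-KO replicate 1 at RT stands high for Col11a2 at 65.6 and for Col27a1 at 407.

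The main interstitial collagens did not pass the test. Col1a1 and Col1a2, the chains of type I collagen, and Col3a1, that of type III, are the bulk fibril genes of connective tissue. Col1a1 was at 415 to 1154 (median 672) in RT controls and at 1309, 592, 884, 1003 and 1283 at 4°C, with a log2 fold change of 0.56 (95% interval -0.0031 to 1.12, adjusted p = 0.0973). In knockouts it was at 494 to 1053 (median 711) and 497 to 1498 (median 694), with 0.16 (-0.38 to 0.69, adjusted p = 0.657). In control it passed without replicate 3 at RT (0.72, adjusted p = 0.0325) or without replicate 2 at 4°C (0.74, adjusted p = 0.0328). For Col1a2 the log2 fold changes were 0.22 and 0.13 in controls and knockouts, with 95% intervals of -0.22 to 0.67 and -0.30 to 0.55. For Col3a1 they were 0.40 and 0.19, with intervals of -0.14 to 0.93 and -0.32 to 0.69. The fitted change of Col4a1 and that of Col4a2 lay above these intervals in both genotypes.

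The type V genes, whose chains nucleate fibrils, gave -0.11 and -0.10 for Col5a1, 0.15 and -0.27 for Col5a2 and -0.03 and -0.05 for Col5a3, in controls and knockouts, all with adjusted p of 0.499 or more. Type VI genes, the beaded filament chains around cells, gave -0.06 and -0.08 for Col6a1, 0.46 and -0.07 for Col6a2, 0.13 and -0.03 for Col6a3 and -0.69 and -0.63 for Col6a6. Of these Col6a2 in control had the smallest adjusted p (0.123). It passed without control replicate 3 at RT (0.63, adjusted p = 0.026) or replicate 2 at 4°C (0.61, adjusted p = 0.046), the same mice whose removal mattered for Col1a1. Control replicate 3 at RT was the highest of its group for Col1a1 (1154), Col3a1 (3574), Col6a1 (691) and Col6a3 (363), and replicate 2 at 4°C the lowest of its group for Col1a1 (592), Col3a1 (1584), Col6a1 (338) and Col6a3 (150.2). The values of Col5a3, Col6a1 and Col6a3 were near 0, and in at least 1 genotype each changed sign when single mice were left out.

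**Figure D3:**
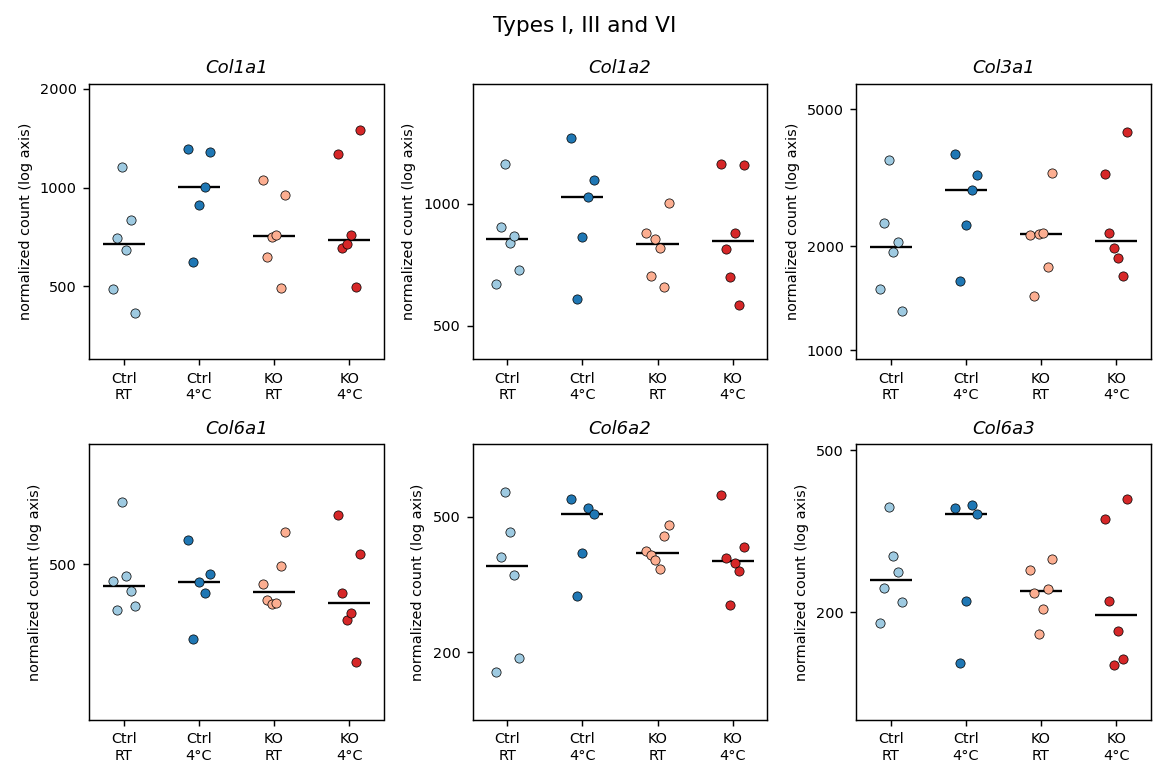
Normalized count (y axis, log scale) of 6 interstitial collagen genes, types I, III and VI, by group (x axis). Each point is 1 mouse and each line the median of its group. RT and 4°C overlap for every gene shown and in both genotypes, and the ranges within a group are wide, from 415 to 1154 for Col1a1 in RT controls.

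The other 5 basement membrane genes did not pass the test. Col4a3, Col4a4 and Col4a5 encode the type IV chains of more specialised membranes such as that of the kidney filter. In controls and knockouts Col4a3 gave 0.56 and 0.06 (adjusted p = 0.0787 and 0.86), Col4a4 gave 0.09 and -0.05, and Col4a5 gave -0.85 and -0.57 (adjusted p = 0.063 and 0.202). Col4a3 and Col4a4 are head-to-head neighbours on chromosome 1, like the pair that rose. Col15a1 gave -0.35 and -0.33, and Col18a1, whose product yields endostatin, gave 0.23 and 0.08. The normalized counts of these 5 genes ranged from 10.1 to 186 over all mice.

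None of the 4 fibril-associated genes passed. Col12a1 gave -0.09 and 0.57, with a wide spread in knockouts kept at 4°C (132 to 1019, median 407), Col14a1 gave 0.05 and 0.15, Col16a1 gave 1.04 and 0.22 and Col20a1 gave 0.65 and 0.08. Col13a1, the other membrane-spanning gene, had values opposite in sign to those of Col23a1. It was at 5.32 to 9.79 (median 7.10) in RT controls and at 2.02, 30.4, 23.6, 13.96 and 40.9 at 4°C, with a log2 fold change of 1.07 (adjusted p = 0.0814) in control and 0.88 (adjusted p = 0.139) in knockouts. In control DESeq2 and edgeR on the recovered reads, a pseudocount of 10 and quantile normalization called it. Of the rest, Col8a1, a network collagen of vessel walls, gave -0.47 and -0.37, Col10a1 gave 0.32 and -0.25 and Col28a1 gave 0.45 and -0.26. Col6a6, Col7a1, Col11a2, Col13a1, Col16a1 and Col28a1 had 3 reads or fewer in at least 1 mouse, which limits what could be detected for them at this depth.

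The balance between collagen genes shifted with these changes. Per kb of the longest coding transcript, the most abundant collagen mRNA in RT controls was Col3a1, with a normalized count of 380.2 ± 145 per kb (SD, n = 6). Col4a1 followed at 296 ± 57.0, then Col1a2 at 159 ± 40.9, Col4a2 at 158 ± 67.0, Col1a1 at 118 ± 44.2 and Col6a1 at 116 ± 26.9. Col3a1 and Col4a1 differed by less than the SD of Col3a1 but more than that of Col4a1. Col4a1 stood above Col1a2 by more than either SD, and the later neighbours in this order differed by less than either SD. In control mice at 4°C Col4a1 came first at 930.1 ± 258 per kb (SD, n = 5) and Col4a2 second at 623 ± 230.4. Col3a1 came next at 493.3 ± 148, then Col1a2 at 189 ± 61.6 and Col1a1 at 171 ± 50.2. In this order Col4a1 and Col4a2 differed by more than either SD, and so did Col3a1 and Col1a2. Col4a2 and Col3a1 differed by less than either SD, and so did Col1a2 and Col1a1. The lowest per kb was Col6a6 at both temperatures, 1.31 ± 0.977 at RT and 0.716 ± 0.556 at 4°C.

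Of the summed normalized counts of all 29 genes, Col4a1 and Col4a2 together made up 27.7% to 38.3% in RT controls and 44.4% to 61.0% at 4°C. In knockouts they made up 26.3% to 37.1% at RT and 44.0% to 56.8% at 4°C. Types I and III together made up 35.4% to 45.8% and 23.1% to 35.0% in control, and 33.7% to 47.3% and 19.9% to 35.0% in knockouts. The sum itself was between 6180.4 and 13072 in RT controls and between 11940.3 and 23746 in the cold, and from 7877 to 11039 and from 10906 to 20147 in knockouts. These shares follow from the genes already described and were not tested.

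No collagen gene was called by genotype. At RT and at 4°C 0 of the 29 genes passed, and 0 passed the test of the interaction between genotype and temperature, where 0.0478%, 0.0751% and 0% of all genes were called. At an unadjusted p under 0.05 the number was also 0 in each, against 5.15%, 6.98% and 5.99% of all genes, and DESeq2 and edgeR on the recovered reads called 0 as well. Genotypes overlapped for every collagen gene at both temperatures (background 0.218% at RT and 0.683% at 4°C). At RT the log2 fold changes of BAT-Mcu-KO against control ran from -0.33 (Col8a1) to 0.70 (Col16a1), and the smallest adjusted p was 0.967 (Col6a6). At 4°C they ran from -0.49 (Col23a1) to 0.71 (Col6a6), and the smallest adjusted p was 0.735 (Col18a1, log2 fold change -0.39, 95% interval -0.79 to 0.02).

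At 4°C 23 of the 29 values by genotype were below 0, with a median of -0.18 against 0.0064 over all genes, a description of genes that vary together and share libraries. For Col4a1 the log2 difference at 4°C was -0.32 (95% interval -0.69 to 0.05, adjusted p = 0.763) and for Col4a2 -0.30 (-0.84 to 0.24, adjusted p = 0.85). Their interaction values were -0.29 (-0.81 to 0.23, adjusted p = 0.889) and -0.34 (-1.09 to 0.41, adjusted p = 0.916). For Col1a1 the difference by genotype was 0.14 at RT (-0.39 to 0.68) and -0.26 at 4°C (-0.82 to 0.31). The intervals bound the size of a genotype effect and do not show that there was none.

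Mice within a group also differed from each other, and the collagen genes differed in whether they did so together. For each gene the group mean of log2(normalized count + 1) was subtracted, and Pearson's r was taken over the 23 mice. Deviations share the library and its size factor. Among the 9 genes of types I, III, V and VI whose mean normalized count was at least 50, the median r of the 36 pairs was 0.70 (0.34 to 0.93). Among the 5 genes that rose in the cold, it was 0.45 over 10 pairs (0.0030 to 0.75), and between the sets it was 0.20 over 45 pairs (-0.32 to 0.72). The median r with the 9 interstitial genes was 0.60 for Col4a1 (0.37 to 0.72) and 0.25 for Col4a2 (-0.07 to 0.57), ranges that overlap. The sets were chosen after values were seen, and the difference was not tested.

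For 9 pairs, r was tested by 100000 permutations within groups, with adjustment over the 9. The pairs shared a molecule or class, except that Col4a1 and Col4a2 were each also set against Col1a1, across classes. Col1a1 and Col1a2, the chains of type I, gave r = 0.93 (rho = 0.95, permutation p = 1e-05 for each, the smallest these permutations can give, adjusted p = 9e-05), and 0.91 without the 2 mice farthest from the median of Col1a1. Within the 4 groups r was 0.87 to 0.97. Both p-values below are for r and for rho, in that order. The 2 extreme mice were picked anew for each pair, as those farthest from the median of the gene named first. Col1a1 and Col3a1 gave 0.92 (rho = 0.91, permutation p = 2e-05 and 3e-05, adjusted 9e-05 and 0.000135), and 0.88 without the 2 extreme mice. Col6a1 and Col6a3, chains of type VI, gave 0.82 (rho = 0.78, permutation p = 9e-05 and 0.00017, adjusted 0.00027 and 0.00051), and 0.77 without them. Col6a1 and Col6a2 gave 0.67 (rho = 0.69, permutation p = 0.0004 and 0.00064, adjusted 0.0009 and 0.00144), and 0.49 without them. Across classes, Col4a1 and Col1a1 gave 0.72 (rho = 0.66, permutation p = 0.00063 and 0.00248, adjusted 0.00113 and 0.00405), and 0.60 without them.

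The type IV pair Col4a1 and Col4a2 gave 0.58 (rho = 0.63, permutation p = 0.00524 and 0.0027, adjusted 0.00681 and 0.00405), and 0.74 without the 2 extreme mice. Within groups r was 0.76 and 0.71 in controls at RT and 4°C and 0.88 and -0.04 in knockouts. Col4a3 and Col4a4, the other head-to-head pair, gave 0.60 (rho = 0.58, permutation p = 0.0053 and 0.00556, adjusted 0.00681 and 0.00715), and 0.61 without them. Col5a1 and Col5a2 gave 0.45 (rho = 0.43, permutation p = 0.0416 and 0.0536, adjusted 0.0468 and 0.0603), and 0.32 without them. Its rho did not pass. Col4a2 and Col1a1 gave 0.37 (rho = 0.37, permutation p = 0.0936 and 0.0998, adjusted 0.0936 and 0.0998), and 0.25 without them, and did not pass.

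**Figure D4:**
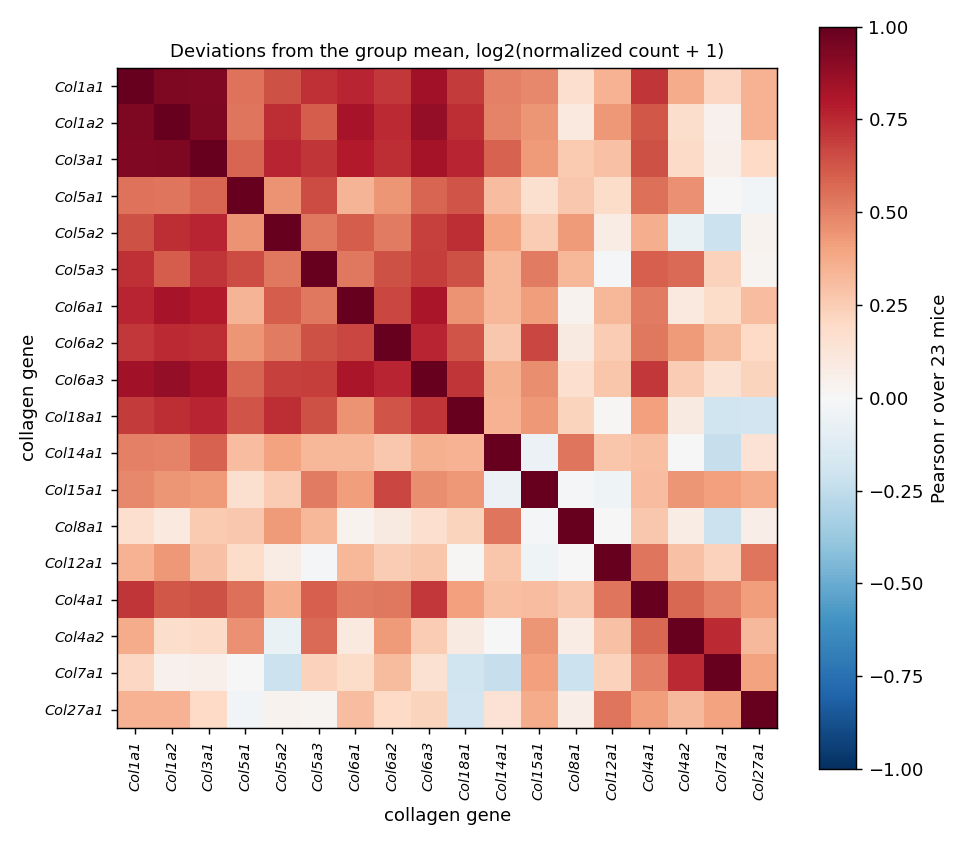
Pearson's r over 23 mice between the deviations of 18 collagen genes from their group means (colour from -1, blue, to 1, red), for genes whose mean normalized count was at least 50, on both axes. Types I, III, V and VI with Col18a1 form the red block at the upper left, with a median r of 0.70 over the 36 pairs of types I, III, V and VI, and Col4a2 and Col7a1 are paler against it than Col4a1.

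Genes that make, bind and break collagen were taken from 8 lists with 102 genes, of which 90 were measured. By cold 23 rose and 14 fell in control and 21 rose and 14 fell in knockouts, and 16 rose and 10 fell in both. Over all genes tested, 22.3% rose and 23.7% fell in control, and 21.4% rose and 21.9% fell in knockouts. In both genotypes 17.3% rose and 17.5% fell. These shares are the background for each list below. By genotype or interaction 0 of the 90 were called, with smallest adjusted p-values of 0.94 at RT, 0.284 at 4°C and 0.78 for the interaction. Values in parentheses are log2 fold changes by cold in controls and knockouts.

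In the endoplasmic reticulum list (modification and folding, 18 of 20 genes measured) 5 rose and 3 fell in control and 6 and 3 in knockouts. The enzymes that rose include the prolyl hydroxylase subunits P4ha1 (2.36 and 2.21) and P4ha2 (1.63 and 1.48), which stabilise the helix, and the lysyl hydroxylase Plod2 (2.19 and 1.82), which prepares cross-links. The normalized count of P4ha1 was 207 to 738 in RT controls and 1529 to 1912 at 4°C, and 261 to 613 and 1259.8 to 2662 in knockouts, without overlap. Crtap (-1.29 and -1.22), a partner of the prolyl hydroxylation complex, fell. It was at 529 to 611 in RT controls and at 190.3 to 284 in the cold. Of the 5 cross-linking genes measured 2 rose in each genotype, Lox and Loxl1 in control and Lox and Loxl3 in knockouts, so that Lox alone rose in both. Lox, the founding lysyl oxidase, was at 154 to 317 in RT controls and 579 to 1349 at 4°C, and at 172 to 279.9 and 1073 to 1884 in knockouts. Its log2 fold change was 1.85 in controls (SE 0.19, adjusted p = 1.54e-08) and 2.47 in knockouts (SE 0.18, adjusted p = 5.27e-11). By genotype at 4°C Lox differed by 0.71, with an adjusted p of 0.284. Of 5 trimming genes 0 rose and 2 fell in control, and 0 were called in knockouts.

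Of the 14 basement membrane partners measured, 6 rose and 1 fell in control and 4 rose and 2 fell in knockouts. Laminins are the sheet-forming partners of type IV, and their chains went in both directions. Lamb1 (1.59 and 1.59) and Lamb3 (3.02 and 3.16) rose, and Lama4 (-1.02 and -1.08), a chain of vessel and fat basement membranes, fell. Lamb1 was at 1351 to 1764 in RT controls and 3222 to 7243 at 4°C, and at 1355 to 1638 and 3183 to 6009 in knockouts. Of 14 collagen-binding matrix genes 1 rose and 2 fell in control and 3 rose and 2 fell in knockouts, among them Thbs1 (1.97 and 1.58), which rose, and Prelp (-0.60 and -0.51) and Fbln2 (-0.34 and -0.46), which fell. Fbln2 in control did not pass without replicate 2 or 3 at RT or replicate 2, 3 or 5 at 4°C (adjusted p 0.0512 to 0.0629).

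Of 12 breakdown genes 2 rose and 0 fell in control and 2 rose and 1 fell in knockouts: the metalloproteinase Mmp3 (1.32 and 1.39) and the inhibitor Timp3 (0.37 and 0.29) rose in both. Timp3 lost its call with quantile normalization (0.192 and 0.105, adjusted p = 0.182 and 0.466) and with 75th percentile scaling (0.26 and 0.24, adjusted p = 0.0639 and 0.078). In knockouts it also lost it without the trend in limma (adjusted p = 0.052), with the GC correction (0.0865), and without replicate 2 or 4 at RT or replicate 1 at 4°C (0.0757, 0.0577 and 0.0947). Of 7 receptors 1 rose and 2 fell in control and 1 rose and 3 fell in knockouts. Itgb1 (0.85 and 0.67), the common beta chain, rose in both genotypes, and Itga1 (-0.56 and -0.62) and Ddr1 (-1.18 and -1.20) fell in both. Itga11, named after its values were seen, fell in knockouts (-1.25, adjusted p = 0.012) and was at -0.92 in control (adjusted p = 0.0704). Of 15 genes of TGF-beta and CTGF signalling, a main pathway for collagen transcription, 6 rose and 4 fell in control and 3 and 3 in knockouts. Ctgf (2.19 and 1.94) and the inhibitory Smad7 (1.92 and 1.95) rose, and Ltbp2 (-2.0 and -2.27) and the signal carrier Smad2 (-0.72 and -0.66) fell.

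**Figure D5:**
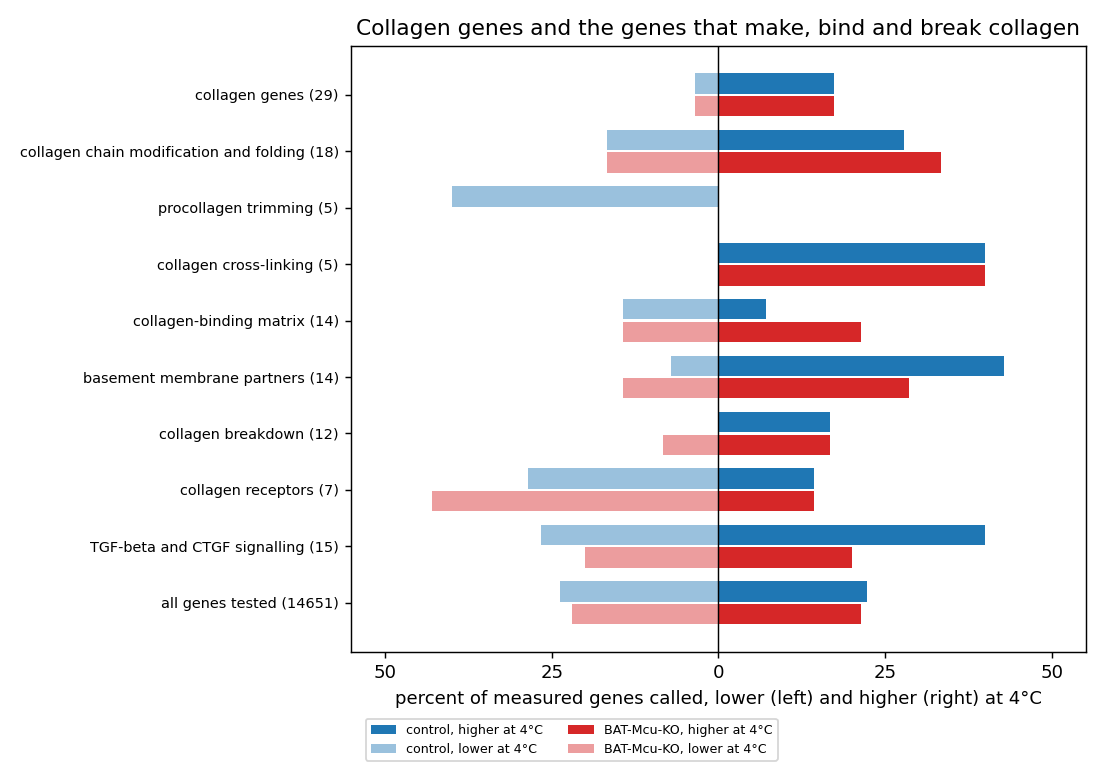
Share of measured genes called by cold (x axis, percent), lower to the left (paler) and higher to the right, for the collagen genes, 8 lists of related genes and all genes tested (y axis, number measured in parentheses), in control (blue) and BAT-Mcu-KO mice (red). The collagen bars reach 3.45% to the left against 23.7% and 21.9% of all genes, and 17.2% to the right against 22.3% and 21.4%. Lists are small, so 1 gene moves a bar by several percent.

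Markers of other cell types in the tissue were counted in the same fit. The background for each list is again 22.3% higher and 23.7% lower in control, and 21.4% and 21.9% in knockouts. Of 11 fibroblast and progenitor markers 1 rose and 1 fell in control and 2 rose and 0 fell in knockouts, with summed counts of 12349 to 16160 and 12033 to 20658 in control and 11588 to 18613 and 12285 to 19352 in knockouts.

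Of 9 pericyte and smooth muscle markers 2 rose and 5 fell in control and 2 rose and 4 fell in knockouts, with summed counts of 7933 to 10579 and 7393 to 9471 in control and 7755 to 11483 and 7069 to 8906 in knockouts. Of 8 macrophage markers 3 and 5 rose and none fell, with sums of 779 to 1194 and 959 to 1553 in control and 648 to 1144 and 1198 to 1655 in knockouts. Of 8 Schwann cell markers 1 rose, Pmp22, in each genotype, and 1 fell in control and 2 in knockouts, with sums of 1429.9 to 2711 and 3266 to 4159 in control and 1762 to 2311 and 3122 to 4314 in knockouts. Such sums are weighted to the most abundant markers. As means of log2 values, the medians of the Schwann list differed by cold by 0.01 in control and -0.27 in knockouts. Of 8 brown adipocyte markers 3 rose and 4 fell in control and 2 rose and 2 fell in knockouts. Of 5 mesothelial markers 1 had a row, Lrrn4, and it fell in both. The part of these cells in the collagen results was not tested.

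Libraries also differed in base composition, taken over genes whose mean normalized count was at least 50. The median log2 value of the 10% of genes richest in GC, relative to the 10% poorest and to the mean over all mice, was 0.02 to 0.21 in RT controls and -0.34 to 0.07 at 4°C, and -0.0020 to 0.22 and -0.26 to -0.06 in knockouts. The collagen genes have a median GC content of 55.7%, against 49.4% for all genes. With a correction for GC content, and with the muscle markers as a covariate, the same 6 genes were called in each genotype.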

How the data were processed

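BAT RNA of 23 mice, in 4 groups, was sequenced in short paired reads from Smart-seq2 libraries. The authors aligned reads to mm10 with STAR 2.4.0j, counted them per gene with HTSeq irrespective of strand (GENCODE M7), and kept those with 8 or more reads in 6 or more samples, which held for all 14651 genes. They deposited a signal per gene, the normalized count, that is the read count divided by the DESeq2 size factor. A second deposited table holds the authors' own fold changes and p-values and was not used. No per-sample columns were left out (0). All values were whole multiples of 1 read per library (tolerance 0.01), and 19 symbols had been turned into dates.

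Because the values are not raw counts, the test was limma 3.58.1 (R 4.3.3) with an intensity trend on log2(normalized count + 1), with 4 group means over 23 mice and Benjamini-Hochberg adjustment. Alternatives were pseudocounts of 0.5 and 10, a mean of 50 or more, quantile normalization, 75th percentile scaling, no trend, only the groups compared, a replicate block, DESeq2 1.42.0 and edgeR 4.0.16 on recovered reads, and each mouse left out. A GC correction and a skeletal muscle covariate were added after the data were seen. Ratios were tested by exact permutation and correlations by 100000 permutations (scipy 1.17.1, pandas 2.3.3, Python 3.11.15). The limma fit was also run on simulated counts with few changed genes, unlike the cold contrasts, so that run cannot test their scaling. Positions are from GENCODE M21 (GRCm38), promoters from RefSeq (GRCm38.p6). Depth was 7129271 to 21006347 reads per mouse, and mice are separate animals.

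The members and lists were chosen with earlier results of these data known. For collagen genes called by cold in both genotypes or by genotype, control mice at 4°C are given singly and the other groups as ranges. From each list up to 4 genes called in both were named, smallest adjusted p first. A gene that this rule names among the basement membrane partners is not reported here. Other genes with values by mouse (Col1a1, Col13a1), the gene sets in the correlations and the Col4a2 to Col4a1 ratio were chosen after values were seen.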

Additional observations from a re-analysis of the deposited data

Results flagged for a closer look

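A single mouse stood apart from the rest of its group, by Dixon's 95% critical value on the log2 scale, in 16 of 208 groups tested. Of these, 6 were among the 116 groups of the collagen genes, a share of 5.17%. Chance gives about 1 in 20. Values are normalized counts, with the range of the other mice of the group.

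BAT-Mcu-KO replicate 1 at RT was high for Col11a2 (65.6, others 3.58 to 11.2) and for Col27a1 (407, others 147 to 191), both genes that rose in the cold. Replicate 2 of that group was low for Col4a3 (16.9, others 29.3 to 38.5) and Col14a1 (24.1, others 47.5 to 69.9). Control replicate 3 at RT was high for Col6a1 (691, others 393 to 470.0). BAT-Mcu-KO replicate 5 at 4°C was low for Col28a1 (4.65, others 10.8 to 14.9).

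The number of Col4a2 per 100 Col4a1 was low in control replicate 1 at 4°C (39.5, others 69.6 to 76.1) and in BAT-Mcu-KO replicate 6 at 4°C (33.4, others 69.3 to 77.4). It was high in BAT-Mcu-KO replicate 1 at RT (76.5, others 44.1 to 52.9). These same mice at 4°C were high for a collagen partner each. Lox was at 1349 in control replicate 1 (others 579 to 737), and Thbs1 at 266 in BAT-Mcu-KO replicate 6 (others 52.6 to 68.6).

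Fbln2 was low in control replicate 5 at RT (275, others 339.6 to 359.8), where Timp3 was high (2493, others 1904 to 2058). Timp3 was also high in BAT-Mcu-KO replicate 1 at 4°C (2971, others 2194 to 2373). Smad7 was low in BAT-Mcu-KO replicate 2 at 4°C (56.1, others 81.8 to 97.0). Mcu was lowest in BAT-Mcu-KO replicate 4 at RT (15.2, others 36.2 to 42.4).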

How the results depend on the processing

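Over the other settings the number of collagen genes called by cold was 4 to 8 in control and 4 to 7 in BAT-Mcu-KO mice, and with each mouse left out 5 to 8 and 6 to 7. By genotype and for the interaction it was 0 throughout. The lowest count, 4, came from testing only genes whose mean was at least 50 normalized counts, 18 of them collagens. Same-numbered mice are different animals, and no label says what else a number stands for. For cold, 0 of 5 same-numbered pairs in controls and 0 of 6 in knockouts correlated above 0.1. By genotype, 0 of 6 did at RT and 2 of 5 at 4°C, where r ran from 0.04 to 0.22. In that order, 0 of 11, 0 of 12, 1 of 12 and 5 of 11 mice correlated best with their own number. What the numbers share at 4°C was not tested. With a replicate block 5 collagen genes were called in control (Col11a2 at 1.43, adjusted p = 0.0623) and 6 in BAT-Mcu-KO mice, with 0 by genotype at RT, 0 at 4°C and 0 for the interaction. Of all 14651 genes, the block fit called 6610 and 6376 by cold. By genotype it called 7 at RT and 7 at 4°C, and 0 for the interaction.

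Values near 0 changed sign in 5 cases among other settings. With the GC correction Col5a3 in BAT-Mcu-KO mice was 0.0327, Col6a1 in control 0.000631 and Col6a3 in BAT-Mcu-KO mice 0.0192, and the last was 0.0652 with DESeq2 and 0.0636 with edgeR. With each mouse left out, the log2 fold change by cold ranged from -0.0168 to 0.301 for Col1a1, -0.172 to 0.078 for Col5a3, -0.0548 to 0.158 for Col18a1, -0.202 to 0.019 for Col6a1, -0.189 to 0.0258 for Col6a2 and -0.183 to 0.0866 for Col6a3 in BAT-Mcu-KO mice. In control it ranged from -0.212 to 0.0864 for Col5a3, -0.147 to 0.0527 for Col6a1 and -0.285 to 0.169 for Col12a1. The cause was not tested. Fbln2 in control was -0.28 (adjusted p = 0.0739) with the GC correction. As means of log2 values, the Schwann list differed by 0.01 and -0.27 and the brown adipocyte list by 0.01 and 0.06 by cold. Genes with few reads, such as Col11a2, are limited by depth.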
